A study of Mus musculus with 9 samples.

Results

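Collagen genes were followed across 9 mouse pancreatic tumors. They were the protein-coding genes whose mouse symbol reads Col, a number, a and a number, which gave 44 of the 54453 genes in the deposited table. Of these, 37 had enough counts to be tested, and 7 (Col2a1, Col6a4, Col9a1, Col19a1, Col22a1, Col25a1 and Col26a1) did not, with 1 to 51 estimated counts each summed over all tumors. The polyA RNA came from frozen primary tumors of KPC mice, a genetically engineered model of pancreatic ductal adenocarcinoma in which Cre recombinase switches on the tumor-driving alleles in the pancreas. The study set 4 tumors labelled Scrib WT, genotype KPF/+C (tumors 2, 3, 6 and 9, here WT 2 to WT 9), against 5 labelled Scrib null, genotype KPF/+CSF/F (tumors 7, 14, 15, 18 and 23, here null 7 to null 23). The KPF/+C part of the genotype is thus shared by all 9 tumors, and SF/F is what the second group adds. Scrib codes for a cytoplasmic scaffold needed for cell polarity. The sources used here give neither the Cre driver nor the age of the mice. Nothing in the labels ties each tumor to a mouse of its own, and the p-values speak only of scatter among these 9 tumors.

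Collagens are secreted or membrane-bound proteins whose chains wind into a triple helix, and the chains that pair up are encoded by separate genes. Fibrillar collagens form the banded fibrils of stroma, FACIT collagens sit on the surface of those fibrils, type VI forms beaded filaments, type IV forms the sheet-like network of basement membranes, and multiplexins lie in the basement membrane zone. Pancreatic ductal adenocarcinoma is known for a dense stroma in which fibroblasts deposit much of the fibrillar collagen, while epithelial and endothelial cells contribute to basement membranes.

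The 9 libraries held 10145830 to 27596832 estimated counts. Levels are given as CPM, a gene's counts scaled to the size of the normalised library. Scrib mRNA itself stood at 70.5 ± 21.5 CPM (SD) over the 4 WT tumors and at 60.3 ± 24.6 CPM (SD) over the 5 null tumors, a log2 fold change of -0.23 (SE 0.31, adjusted p = 0.712, edgeR quasi-likelihood test), so the mRNA level did not set the labelled groups apart. The counts are per gene and from whole tumors, so they show neither which exons nor which cells the Scrib mRNA came from. The 8 epithelial markers, keratins and junction proteins of ductal cells, summed to 6998 to 13260 CPM in every tumor. The 13 fibroblast identity markers, none of them a collagen, summed to 889 to 2091 CPM in the WT group and 464 to 1969 CPM in the null group. Null 7 held the lowest sum of the fibroblast, pericyte, endothelial and epithelial lists.

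No collagen gene passed the test for a difference between the labelled groups. By edgeR's quasi-likelihood test 0 of 37 passed an adjusted p of 0.05, where 0.0124% of all 16169 genes tested did, and the adjusted p of the collagens ran from 0.254 to 0.992. DESeq2 and limma-voom also called 0 collagens, against 3.39% and 0.0371% of all genes each tested. At an unadjusted p of 0.05, 0 collagens were lower in the null group, against 10% of all genes, and 1, Col4a5, was higher, against 7.64% of all genes. For 0 of the 37 did the values of the groups lie apart without overlap, which 6.91% of all genes showed. Fitted log2 fold changes were below 0 for 24 collagens (64.9%, against 52.2% of all genes) and above 0 for 13, with a median of -0.43 against -0.03 over all genes.

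The classes leaned different ways. Of the tested fibrillar genes 9 of 10 had a log2 fold change below 0 (median -0.60), as had 5 of 5 type VI genes (median -0.72) and 3 of 3 transmembrane genes (median -0.37). All 6 type IV genes had one above 0 (median 1.30). FACIT genes were split 3 and 3 (median 0.15), multiplexins 1 and 1 (median -0.17) and network collagens 2 below and 1 above (median -0.72). The single tested genes of the last classes, Col7a1 and Col28a1, stood at 0.02 and -0.96. Over all genes 52.2% were below 0, and genes that move together are not separate observations of a class. Without WT 2 the values of Col5a1, Col6a1 and Col6a2 were 0.04, 0.175 and 0.26, while those of Col1a1, Col1a2, Col3a1 and Col6a3 stayed below 0. The type IV median rested in part on the scarce Col4a3, Col4a4 and Col4a6, while Col4a1 and Col4a2 stood at 0.27 and 0.15.

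**Figure D1:**
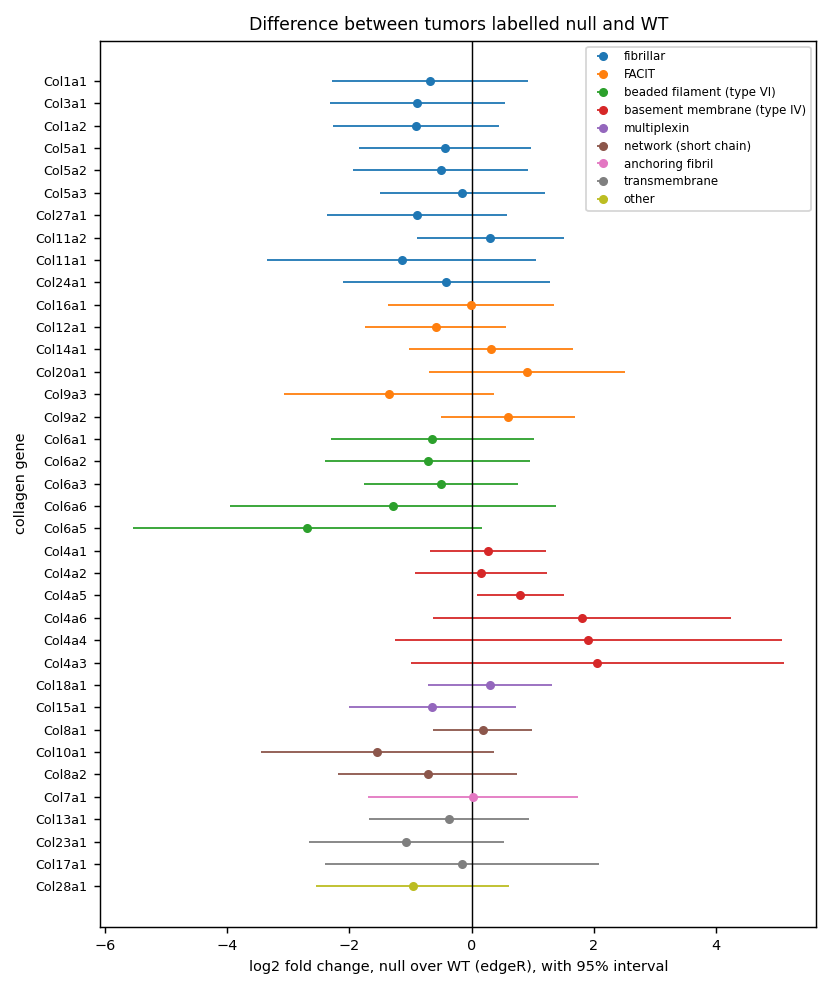
Log2 fold change of each of the 37 tested collagen genes (null group over WT group, edgeR), with bars for the 95% confidence interval and colours for the class. Every interval but that of Col4a5 spans 0, and the 6 type IV genes sit right of 0 while 9 of 10 fibrillar genes sit left of it.

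The fibrillar chains Col1a1 and Col3a1 had the highest mean levels of the collagen mRNAs. Per kb of exon, Col1a1 led with a mean of 205.5 CPM per kb over the 9 tumors, followed by Col3a1 (156.2), the type IV chain Col4a1 (94.6), the multiplexin Col18a1 (87.9), Col1a2 (85.0) and Col4a2 (62.0). In null 7 alone, Col18a1 (73.0 CPM per kb) and Col4a1 (53.7) stood above Col1a1 (21.4) and Col3a1 (9.11). Per kb of the longest annotated transcript Col3a1 came first (275.6), then Col1a1 (227.4) and Col1a2 (197.5), so the order of these genes rests on the length used. At the other end, Col9a1 and Col19a1 were found with 1 and 2 counts in all.

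Col1a1 (chr11:94936224-94953042, plus strand, GRCm38) encodes the major chain of type I collagen. Its level was 3576, 352, 647 and 2247 CPM in WT 2, WT 3, WT 6 and WT 9, and 141, 1442, 1177, 1357 and 1199 CPM in null 7, null 14, null 15, null 18 and null 23. WT 2 was the highest tumor, 4 of the null tumors lay between the WT extremes, and null 7 lay under all others. The log2 fold change was -0.68 (SE 0.72, adjusted p = 0.622, edgeR quasi-likelihood test), with a 95% interval of the fold from 0.206 to 1.89.

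Col1a2 (chr6:4504814-4541544, plus strand) encodes its partner chain. It stood, in the same order of tumors, at 2188, 564, 788 and 2167 CPM in the WT group and at 97.8, 954, 1085, 904 and 759 CPM in the null group, again with overlap and with null 7 lowest. The log2 fold change was -0.91 (SE 0.62, adjusted p = 0.438, edgeR). The ratio of Col1a1 to Col1a2 per kb was 3.10, 1.18, 1.56 and 1.96 in the WT group and 2.72, 2.86, 2.05, 2.84 and 2.99 in the null group. With the longest transcript as length the same ratio ran from 0.562 to 1.47, so its absolute value depends on the gene model. The order of the tumors could not change, because a gene's length scales the ratio alike in every tumor.

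Col3a1 (chr1:45311538-45349706, plus strand) encodes type III collagen, which forms fibrils together with type I. It measured 2803, 1009, 1473 and 2958 CPM in the WT group and 89.4, 1056, 1822, 1476 and 1113 CPM in the null group. WT 2 and WT 9 were high, null 7 was far under every other tumor, and the other null tumors fell among the WT values. The log2 fold change was -0.89 (SE 0.65, adjusted p = 0.471, edgeR). Together Col1a1, Col1a2 and Col3a1 made up 50.8% to 55.7% of the summed collagen CPM per kb in the WT group and 15.3% to 51.8% in the null group.

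Type V chains, which nucleate type I fibrils, showed the same profile at a lower level. Col5a1 (chr2:27886425-28039514, plus strand) read 549, 79.0, 163 and 409 CPM in the WT group and 34.7, 223, 248, 345 and 263 CPM in the null group, with a log2 fold change of -0.43 (SE 0.64, adjusted p = 0.732, edgeR). Its partners Col5a2 and Col5a3 had log2 fold changes of -0.51 and -0.15, and null 7 was again the lowest tumor for both. The minor fibrillar genes Col11a1, Col24a1 and Col27a1 had values of -1.15, -0.41 and -0.89, and Col11a2, at 3.22 to 21.3 CPM, was the 1 fibrillar gene above 0 (0.31).

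The sequences below lie upstream of a fibrillar gene with a TATA motif and of one with GC boxes. At 35.2% and 76.4% G and C, they are the lowest and the highest of the 38 collagen windows counted here. Both are the 250 bases before the RefSeq start on GRCm38.p6, and capitals mark the motifs found, TATAAA upstream of Col3a1 (chr1:45311288-45311537, plus strand) and GGGCGG, read on either strand, upstream of Col5a1 (chr2:27886175-27886424, plus strand).
Col3a1: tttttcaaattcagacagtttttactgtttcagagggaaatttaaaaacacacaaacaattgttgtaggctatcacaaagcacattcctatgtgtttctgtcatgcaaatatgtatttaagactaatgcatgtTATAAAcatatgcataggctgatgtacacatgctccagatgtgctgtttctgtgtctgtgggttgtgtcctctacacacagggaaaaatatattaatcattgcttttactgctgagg
Col5a1: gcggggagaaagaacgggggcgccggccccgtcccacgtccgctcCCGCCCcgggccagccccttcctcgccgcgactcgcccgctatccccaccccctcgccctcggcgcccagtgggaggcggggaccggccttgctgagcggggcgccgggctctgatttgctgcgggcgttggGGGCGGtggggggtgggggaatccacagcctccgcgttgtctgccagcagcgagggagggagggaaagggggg
The table of RefSeq starts matched 35 members with 38 windows. TATAAA was in 13.2% of these windows and 12.4% of all 32851 windows in the table, CCAAT in 34.2% and 33.8%, and GGGCGG in 57.9% and 32.7%, each on either strand. The median share of G and C was 59.0% in the collagen windows and 52.4% in all windows, and the GGGCGG shares were not adjusted for it. The window of another fibrillar gene, Col11a2, held both TATAAA and GGGCGG, at 57.6% G and C. A match of letters is a description and not a bound site.

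**Figure D2:**
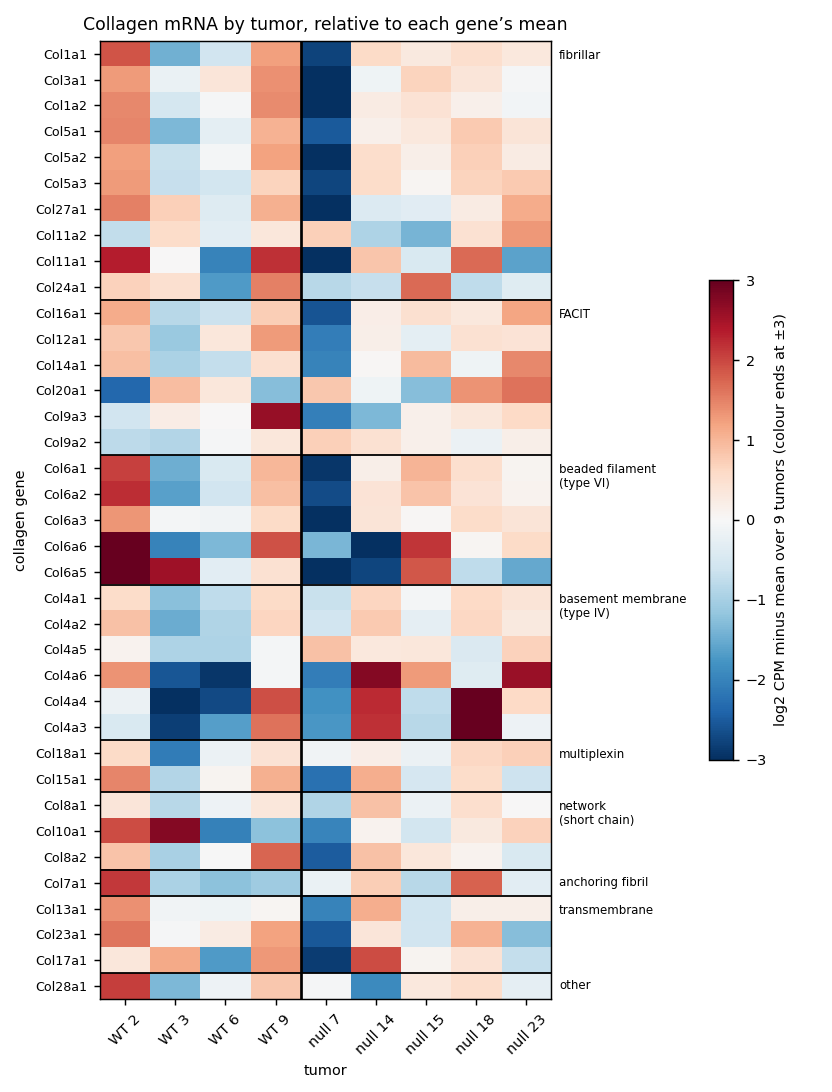
Log2 CPM of the 37 tested collagen genes in each tumor, minus the gene's mean over the 9 tumors; genes are grouped by class and the vertical line divides the WT group from the null group. The column of null 7 is the lowest for 22 of 37 genes, none of them type IV, and the column of WT 2 is the highest for 18.

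One tumor of each group stood out across the family. Null 7 was the lowest tumor for 22 of 37 collagens (59.5%), where it was the lowest for 20.7% of all genes tested, and these included 8 of 10 fibrillar, 4 of 5 type VI and 3 of 3 transmembrane genes but 0 of 6 type IV genes. WT 2 was the highest tumor for 18 of 37 (48.6%, against 14.2% of all genes), including 5 of 5 type VI genes. Summed over all members, collagen mRNA made up 14700, 3299, 5108 and 12180 CPM in the WT group and 1848, 7610, 7090, 8193 and 6947 CPM in the null group, or 0.185% to 1.47% of the size of the normalised library. Without WT 2 the median log2 fold change of the collagens was 0.04 and without null 7 it was -0.18, so these single libraries set much of the median. Without both WT 3 and null 7 it was -0.33, and Col1a2 and Col3a1 were then lower at the unadjusted but not the adjusted threshold.

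Type VI collagen is assembled from Col6a1, Col6a2 and a further chain, commonly Col6a3. Col6a1 (chr10:76708792-76726168, minus strand) stood at 577, 50.4, 102 and 276 CPM in the WT group and 18.5, 158, 283, 197 and 148 CPM in the null group. Col6a2, on the same strand of that chromosome, followed it with 490, 33.9, 70.3 and 198 CPM against 16.3, 140, 192, 140 and 113 CPM. Col6a3, on chromosome 1, had 141, 53.6, 51.8 and 83.6 CPM against 6.56, 72.8, 56.9, 82.1 and 72.9 CPM. WT 2 was high and null 7 low for all of these chains, and the remaining null tumors fell between the WT extremes. The log2 fold changes were -0.64, -0.72 and -0.50, with adjusted p of 0.655, 0.620 and 0.648 by edgeR. The alternatives to it, Col6a5 and Col6a6, did not exceed 14.9 CPM in any tumor, and Col6a5 had the lowest log2 fold change of the family (-2.69, SE 1.29, adjusted p = 0.304, edgeR), on 391 counts in all.

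FACIT collagens decorate the fibrils made by types I and V. Col16a1 had the highest level per kb in the class, with 111, 28.4, 32.5 and 85.3 CPM in the WT group and 8.43, 58.1, 71.5, 63.8 and 116 CPM in the null group. The groups overlapped almost fully, at a log2 fold change of -0.01 (SE 0.62, adjusted p = 0.992, edgeR). Col12a1 measured 144, 37.5, 103 and 196 CPM against 19.1, 91.7, 66.7, 112 and 109 CPM, a log2 fold change of -0.59 (SE 0.52, adjusted p = 0.554, edgeR). Col14a1 stood at 5.197 to 57.0 CPM (log2 fold change 0.31), Col20a1 at 1.15 to 19.6 CPM (0.91), and Col9a3 at 0.353 to 11.2 CPM (-1.36). For Col20a1 the WT tumors that were high for fibrillar genes were the low ones, at 1.15 CPM in WT 2 and 2.52 CPM in WT 9.

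Type IV was the 1 class of several genes with all its fitted values above 0. Its chains Col4a1 and Col4a2 form the common basement membrane network, and the other 4 form networks found in particular epithelia. Col4a1 (chr8:11198423-11312826, minus strand) read 930, 269, 375 and 958 CPM in the WT group and 401, 999.1, 613, 975.3 and 832 CPM in the null group. Col4a2 (chr8:11312805-11449287, plus strand) read 659, 129, 193 and 566 CPM and 242, 616, 299, 549 and 441 CPM. WT 3 was the lowest tumor for both, null 7 lay inside the WT range, and the groups overlapped. The log2 fold changes were 0.27 (SE 0.43, adjusted p = 0.750, edgeR) and 0.15 (SE 0.49, adjusted p = 0.888, edgeR), with 95% intervals of the fold from 0.625 to 2.33 and from 0.526 to 2.35. The ratio of Col4a1 to Col4a2 per kb stayed between 1.25 and 1.85 in the 9 tumors.

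Col4a5 (chrX:141475385-141689234, plus strand) was the collagen with the smallest p. Its level was 31.9, 15.5, 15.5 and 28.1 CPM in the WT group and 53.9, 36.9, 37.1, 21.8 and 47.5 CPM in the null group. Of the 5 null tumors, 4 lay above every WT tumor and null 18 lay among them. The log2 fold change of 0.80 (SE 0.32) had an unadjusted p of 0.0326 and an adjusted p of 0.254 in edgeR's quasi-likelihood test, and the 95% interval of the fold ran from 1.06 to 2.85. An exact two-sided permutation test over all splits of the 9 tumors gave p = 0.0794, where the smallest it can give is 0.00794. The unadjusted p did not pass 0.05 without WT 3, WT 6, null 7 or null 23, each left out alone, without both WT 3 and null 7, by limma-voom, or with the fibroblast list or the range of the tumor identifier as covariate.

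Col4a3, Col4a4 and Col4a6 were scarce. Col4a3 and Col4a4 were at 0 in WT 3, where 3 counts would be 0.258 CPM, and highest in null 18, at 9.31 and 13.0 CPM. Col4a6 ranged from 0.385 CPM in WT 6 to 24.3 CPM in null 14, with 21.5 CPM in null 23 and 9.07 CPM in WT 2. Their log2 fold changes were the highest of the family, at 2.06, 1.91 and 1.81, but the SEs were 1.38, 1.43 and 1.10 and the groups overlapped. Exons of Col4a3 share 563 bases with a noncoding gene on the other strand, and no label states whether strand was kept in the library.

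The type IV genes lie as head-to-head pairs on opposite strands, and the sequences at their starts show how tight the pairs are. The annotated first exons of Col4a1 and Col4a2 share 22 bases, in capitals in the first line (chr8:11312801-11312830, plus strand). Only a read lying wholly within those bases could not be assigned without strand. The second line is the whole gap of 71 bases between the starts of Col4a4 and Col4a3 (chr1:82586850-82586920, minus strand). The starts of Col4a6 and Col4a5 lie 1309 bases apart. The last lines give the 250 bases before Col4a6 (chrX:141474077-141474326, minus strand) and 216 bases before Col4a5 (chrX:141475169-141475384, plus strand), with a GC box, read on the other strand, and a CCAAT in capitals. The RefSeq window of Col4a5 runs on to base 141475418 and also holds a GC box, which the printed stretch does not contain. All printed sequences are from RefSeq's GRCm38.p6.
Col4a2 and Col4a1 starts: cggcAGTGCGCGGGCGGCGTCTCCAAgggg
Col4a4 to Col4a3 gap: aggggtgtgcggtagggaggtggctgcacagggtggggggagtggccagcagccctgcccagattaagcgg
Col4a6: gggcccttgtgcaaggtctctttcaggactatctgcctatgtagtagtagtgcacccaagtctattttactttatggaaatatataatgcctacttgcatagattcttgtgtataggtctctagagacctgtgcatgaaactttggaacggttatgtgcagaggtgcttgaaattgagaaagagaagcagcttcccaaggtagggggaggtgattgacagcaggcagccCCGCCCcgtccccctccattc
Col4a5: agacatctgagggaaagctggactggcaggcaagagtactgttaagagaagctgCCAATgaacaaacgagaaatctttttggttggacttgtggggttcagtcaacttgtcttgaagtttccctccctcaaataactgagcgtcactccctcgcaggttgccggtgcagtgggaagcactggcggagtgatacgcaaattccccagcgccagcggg

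Chains that build the same molecule mostly kept step across the 9 tumors. Of 10 such pairs, all compared on log2 CPM with exact two-sided permutation tests adjusted over the 10, 7 passed. Chains of different molecules were not compared, so these values do not show that keeping step is particular to partners. Col6a1 and Col6a2 had Pearson r = 0.994 (adjusted permutation p = 4.134e-05) and Spearman rho = 0.983 (adjusted permutation p = 0.000248). The head-to-head pair Col4a1 and Col4a2 had r = 0.984 (adjusted permutation p = 0.000124) and rho = 0.883 (0.00769), and Col4a3 and Col4a4 had r = 0.982 (4.134e-05) and rho = 0.983 (0.000248). Without the pair of tumors farthest from the median of the first gene these r were 0.988, 0.954 and 0.969. Col5a1 and Col5a2 followed at r = 0.953 and rho = 0.950, and Col1a1 and Col1a2 at r = 0.939 and rho = 0.867, with adjusted permutation p of 9.186e-05 and 0.000331 for r and 0.00118 and 0.00902 for rho.

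The other 5 pairs were looser. Col6a1 and Col6a3 had r = 0.881 (adjusted permutation p = 0.00204) and rho = 0.80 (0.0231), but r was 0.590 without WT 2 and null 7, so that relation rested in part on those tumors. Col8a1 and Col8a2 had r = 0.809 (adjusted permutation p = 0.0104), rho = 0.733 (0.0445) and r = 0.698 without null 7 and null 14. Col4a5 and Col4a6 had r = 0.595 (adjusted permutation p = 0.120) and rho = 0.550 (0.166), and r = 0.036 without WT 3 and WT 6: null 7 was the highest tumor for Col4a5 and held only 0.757 CPM of Col4a6. Col11a1 and Col11a2 (r = -0.287, rho = -0.367) and Col9a2 and Col9a3 (r = -0.161, rho = -0.250) had negative values, with adjusted permutation p for r of 0.494 and 0.680.

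**Figure D3:**
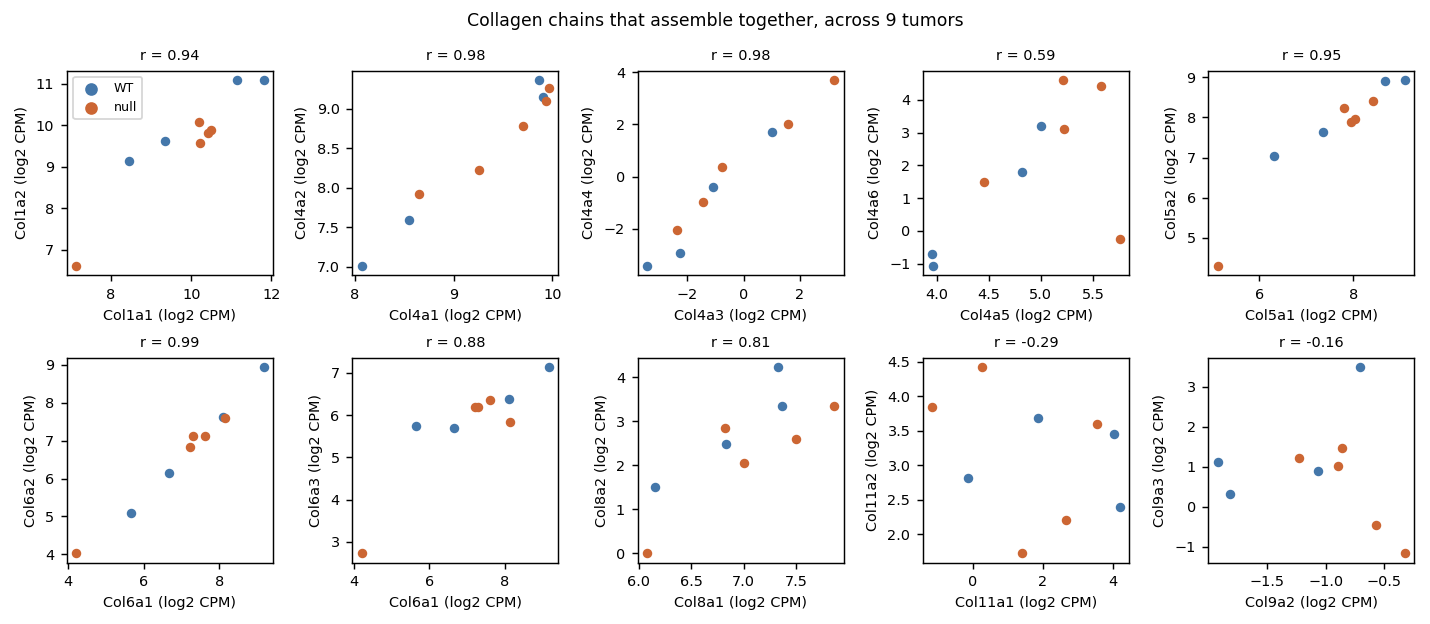
Log2 CPM of 10 pairs of collagen chains that assemble with each other, 1 point per tumor (blue WT, orange null), with Pearson r above each panel. Points of the type I, IV (Col4a1 with Col4a2, Col4a3 with Col4a4), V and VI pairs run along a line, while those of Col4a5 with Col4a6, Col11a1 with Col11a2 and Col9a2 with Col9a3 scatter.

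Seen as a share of all collagen mRNA, type IV made up more in the null group. It held 12.4%, 14.6%, 13.4% and 14.9% of the summed collagen CPM per kb in the WT group and 39.2%, 24.2%, 15.3%, 21.2% and 21.2% in the null group, or 13.8% ± 1.15 (SD, n = 4) against 24.2% ± 8.98 (SD, n = 5). Every null tumor lay above every WT tumor, narrowly so for null 15 over WT 9. The same order held on CPM without length (means 11.97% and 22.4%) and with the longest transcript as length (10.5% and 20.2%), the latter chosen after the data were seen. This is a description with no test, and a share can move through its denominator: the summed type IV CPM itself overlapped, at 414 to 1631 CPM in the WT group and 698 to 1683 CPM in the null group.

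The fibrillar share was the counterpart. It was 59.2% to 63.7% in the WT group and 48.6% to 59.1% in 4 null tumors, with 19.1% in null 7. On CPM without length the groups overlapped, with 65.7% in null 15 and 65.4% in WT 6. The Col4a1 to Col1a1 ratio per kb was 0.229, 0.672, 0.509 and 0.375 in the WT group and 2.51, 0.609, 0.458, 0.632 and 0.610 in the null group, so only null 7 held more of the basement membrane chain than of the fibrillar one. Multiplexins made up 7.88% to 15.7% in the WT group and 9.84% to 31.2% in the null group, with null 7 again at the top.

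**Figure D4:**
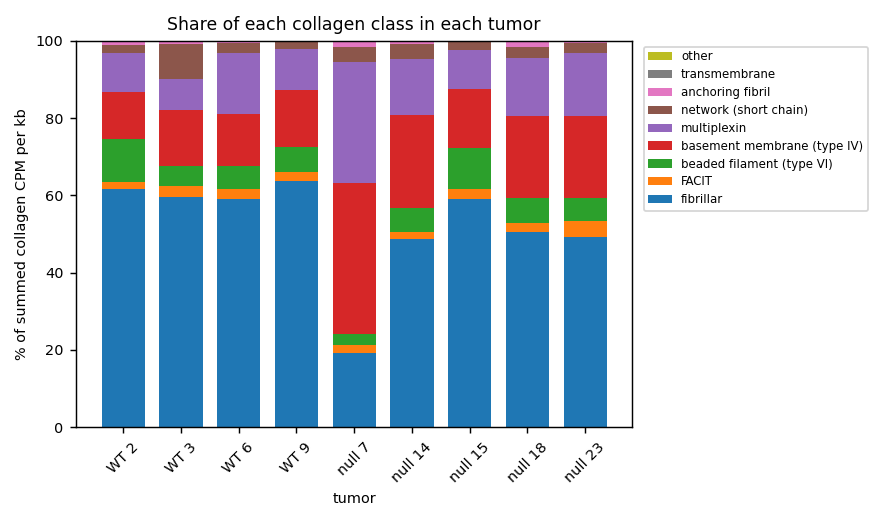
Share of each collagen class in the summed collagen CPM per kb of merged exons, 1 bar per tumor. The type IV band is 12.4% to 14.9% in the 4 WT tumors and 15.3% to 39.2% in the 5 null tumors, and the fibrillar band shrinks to 19.1% in null 7.

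Multiplexins carry the antiangiogenic fragment endostatin in the case of Col18a1. Col18a1 (chr10:77052178-77166548, minus strand) stood at 824, 128, 490 and 744 CPM in the WT group and 512, 632, 483, 841 and 897 CPM in the null group, a log2 fold change of 0.30 (SE 0.46, adjusted p = 0.740, edgeR). WT 3 was far below the others, and null 7 was not set apart. Col15a1, its relative in vessel and muscle basement membranes, was also highest in WT 2 and lowest in null 7, at 423, 83.0, 162 and 322 CPM in the WT group and 32.8, 327, 109, 224 and 99.7 CPM in the null group. Its log2 fold change was -0.64 (SE 0.62, adjusted p = 0.585, edgeR).

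Among the short-chain network collagens, Col8a1, found in vessel walls and subendothelial matrix, varied least. It measured 165, 71.2, 114 and 160 CPM in the WT group and 67.6, 233, 113, 181 and 128 CPM in the null group, a log2 fold change of 0.18 (SE 0.37, adjusted p = 0.809, edgeR) with overlap throughout. Col10a1, best known from hypertrophic cartilage, was highest in WT 3 (83.8 CPM) and WT 2 (48.1 CPM) and at 2.96 to 19.9 CPM in the other 7 tumors. WT 3 was the lowest tumor for 7 of 37 collagens, where it was the lowest for 26.85% of all genes tested. Col10a1 was the 1 collagen highest in WT 3, which was the highest tumor for 21.01% of all genes. The log2 fold change of Col10a1 was -1.54 (SE 0.86, adjusted p = 0.355, edgeR).

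Col7a1 (chr9:108953586-108984875, plus strand) encodes the anchoring fibrils that tie epithelial basement membrane to stroma. It stood at 186, 21.99, 18.2 and 20.2 CPM in the WT group and 37.1, 71.0, 23.8, 145 and 34.5 CPM in the null group. WT 2 was high above the other WT tumors, all of which lay below every null tumor. The log2 fold change was 0.02 (SE 0.78, adjusted p = 0.991, edgeR), and without WT 2 it was 1.63, past the unadjusted but not the adjusted threshold.

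The transmembrane collagens were scarce. Col17a1, a hemidesmosome protein of basal keratinocytes, was at 0.764, 1.38, 0.116 and 1.56 CPM in the WT group and 0, 2.52, 0.616, 0.819 and 0.318 CPM in the null group, with 3 counts equal to 0.151 CPM in null 7, where none was counted. Col13a1, found at cell-matrix junctions, was at 9.74, 3.44, 3.39 and 3.91 CPM against 0.858, 7.99, 2.43, 4.24 and 4.20 CPM. Neither separated the groups, with log2 fold changes of -0.16 (SE 1.013) and -0.37 (SE 0.59). Col28a1, related to the type VI chains, was at 5.54, 0.430, 1.12 and 2.26 CPM against 1.21, 0.263, 1.57, 1.82 and 1.02 CPM, with a log2 fold change of -0.96 (SE 0.72, adjusted p = 0.481, edgeR).

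**Figure D5:**
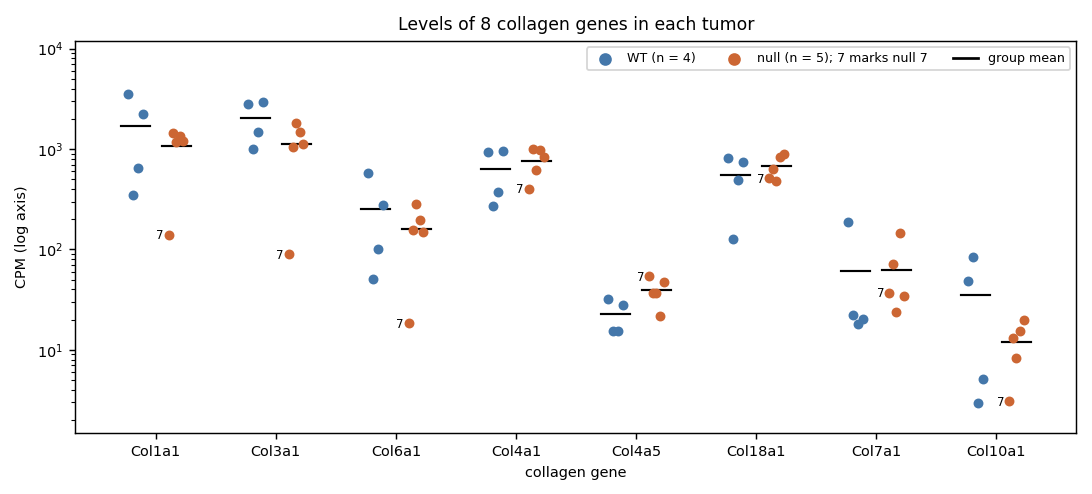
CPM of 8 collagen genes in each tumor on a log axis, blue for the WT group (n = 4) and orange for the null group (n = 5), with bars at the group means and null 7 marked by its number. Null 7 lies at 141 CPM for Col1a1 and 89.4 CPM for Col3a1, under all other tumors, but inside the range for Col4a1 and at the top for Col4a5 (53.9 CPM).

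The genes that make, place and remove collagen were counted in the same fit, and 0 in any of the 8 lists passed the adjusted threshold. Counts at the unadjusted threshold are to be read against the 10% of all genes tested that were lower and the 7.64% that were higher, and counts below 0 against 52.2% of all genes. Of 20 modifying enzymes and chaperones 13 were below 0 and 7 above (median log2 fold change -0.34). Only the cyclophilin Ppib (563 ± 289 CPM in the WT group, 312 ± 46.3 CPM in the null group, log2 fold change -0.85, adjusted p = 0.248, edgeR) and the prolyl hydroxylase subunit P4ha3 (9.95 ± 5.23 against 4.97 ± 1.62 CPM) passed the unadjusted threshold, both lower, which is the share seen over all genes. Of 7 crosslinking enzymes 5 were below 0, and the lysyl oxidase Loxl4 was the 1 past the unadjusted threshold, at 7.21 ± 3.45 CPM (SD, n = 4) against 16.9 ± 9.57 CPM (SD, n = 5), and a count of 1 in so short a list is near the share over all genes. Of 7 propeptide processing genes 6 were below 0, and 0 passed.

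Fibril organizers and collagen-removing genes had the lowest medians of the 8 lists. The 13 fibril organizers had values from -1.72 to -0.0004 (median -0.74), the last being no change, and 2, Lum and Sparc, were lower at the unadjusted threshold, near the 10% of all genes. Sparc, a collagen-binding matricellular protein, was at 1981, 1527, 1815 and 2859 CPM in the WT group and 156, 945, 1189, 1105 and 1178 CPM in the null group, with no overlap (log2 fold change -1.16, SE 0.49, adjusted p = 0.261, edgeR). All 9 collagenase and uptake genes were below 0 (median -1.31), and 4 were lower at the unadjusted threshold, where 10% of all genes were. Among them Ctsk, the collagen-degrading protease cathepsin K, stood at 113, 71.3, 60.6 and 203 CPM in the WT group and at 4.19, 18.2, 14.5, 18.8 and 6.64 CPM in the null group, without overlap (log2 fold change -3.17, SE 0.51, adjusted p = 0.144, edgeR), and the others were Mrc1, Mmp9 and Fap. Groups without overlap, as for Sparc and Ctsk, were seen for 6.91% of all genes tested, and both genes were named for a small p in their lists. Fap is also in the fibroblast identity list, as are Lum and Dcn of the fibril organizers, so the counts of these lists are not separate observations.

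Receptors and basement membrane partners were divided. Of 9 collagen receptors 5 were below 0 and 4 above: the leukocyte receptor Lair1 stood at 15.0 ± 1.87 CPM (SD, n = 4) against 6.51 ± 1.84 CPM (SD, n = 5) with no overlap (log2 fold change -1.20, adjusted p = 0.197, edgeR), and the integrin subunit Itga2 at 172 ± 52.4 CPM against 277 ± 77.3 CPM (0.68, adjusted p = 0.268, edgeR). Of 15 basement membrane partners of type IV collagen 9 were above 0 (median 0.42). The laminin chain Lama5 was at 361 ± 123 CPM against 798 ± 429 CPM (log2 fold change 1.15, adjusted p = 0.233, edgeR) and Lamb1 at 194 ± 84.5 CPM against 356 ± 164 CPM (0.88). Lama2 was at 25.2, 4.725, 4.16 and 5.03 CPM in the WT group against 1.87 to 3.87 CPM in the null group (-1.78). As for Lair1, the Lama2 groups did not overlap, which 6.91% of all genes showed. For Lama2, WT 2 stood far above the other WT tumors. Of 5 hemidesmosome partners 4 were above 0 (median 0.53), and 0 passed.

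Markers of the cell types a whole tumor can hold were read in the same fit. Of 13 fibroblast identity markers 11 were below 0 (median -0.97), of 8 myofibroblast and pericyte markers 7 (median -1.09), and of 8 endothelial markers all 8 (median -0.84), whereas of 8 epithelial markers 3 were below 0 and 5 above (median 0.05). At the unadjusted threshold 3, 4, 3 and 0 of these lists' genes were lower, against 10% of all genes, and 0 were higher, against 7.64%, and 0 passed the adjusted one. The 6 leukocyte markers were also all below 0, and the acinar list summed to 7.15 to 521 CPM. The summed pericyte list was 563 to 906 CPM in the WT group and 99.3 to 510 CPM in the null group, and the summed endothelial list 259 to 517 CPM and 51.9 to 255 CPM, both without overlap. On the mean log2 CPM of each list the groups did overlap. For pericytes null 23 (5.235) lay above WT 3 (5.135) and WT 6 (5.079). For endothelium null 14 (4.69) and null 23 (4.705) lay above WT 2 (4.668). In whole tumors, fewer cells of a type and less collagen RNA per cell cannot be told apart. The mean log2 CPM of the fibroblast list was 5.79, 4.68, 5.1 and 5.49 in the WT group and 2.16, 4.15, 5.45, 3.97 and 4.17 in the null group. With that mean as a covariate in the edgeR fit, the median log2 fold change of the collagens was 0.71, against 0.03 over all genes, and again 0 collagens passed the adjusted threshold. The summed CPM of the list, not used as a covariate, ordered the tumors otherwise. It was 2091, 889, 1314 and 1593 in the WT group and 464, 1516, 1969, 1934 and 1874 in the null group.

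In relations with these marker levels, computed after the data were seen, 31 of 37 collagens had a positive r with the fibroblast list (median 0.596), 30 with the endothelial list (median 0.532) and 30 with the epithelial list (median 0.402). Without the pair of tumors farthest from the median of each list, null 7 among them each time, 17 r were positive with the fibroblast list (median -0.051, without WT 2 and null 7), 8 with the endothelial list (median -0.448, without WT 9 and null 7) and 6 with the epithelial list (median -0.467, without WT 6 and null 7). The positive signs thus rested on these tumors. Of these 111 relations 0 passed adjustment in exact two-sided permutation tests. The highest r of the 111, that of Col3a1 with the fibroblast list, was 0.926 (permutation p = 0.00112, adjusted p = 0.124), with rho = 0.767 (permutation p = 0.0214, adjusted p = 0.654), and r = 0.720 without WT 2 and null 7, unlike Col1a1, whose r went from 0.735 to 0.035. Col4a1 had r = 0.223 and rho = -0.067 with that list, and Col4a5 had r = -0.428 and rho = -0.283, with permutation p for r of 0.583 and 0.254 (adjusted 0.711 and 0.429).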

How the data were processed

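mRNA of 9 tumors was measured by polyA RNA sequencing. The deposited table held 1 column of estimated counts per tumor, made by the authors with Salmon 1.4.0 on GRCm38 (mm10), with DESeq 2 also named, per the submitters' processing notes; the annotation release and strandedness are not given in the sources used here. Symbols and positions for 54131 of 54453 genes came from GENCODE M21.

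Estimated counts were rounded to whole numbers (no value moved by over 0.5). Genes were kept by filterByExpr (minimum count 10, minimum total 15; 16169 kept), scaled by TMM and tested with edgeR 4.0.16's quasi-likelihood test in R 4.3.3, 4 WT against 5 null tumors with no covariate, with Benjamini-Hochberg adjustment over all genes tested. The SE was the log2 fold change divided by the square root of F. Log2 CPM used a prior count of 2. The fit was tested on simulated data. Single values were tested by exact permutation over all splits or pairings of the tumors (scipy 1.17.1). CPM per kb used merged exon length. Intervals are 95% and cover the scatter among tumors; a floor of 3 counts covers counting error only. The spread between tumors (common biological coefficient of variation 0.494) rather than depth, 10145830 to 27596832 counts, set the precision of all but scarce genes.

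Collagen genes and gene lists were chosen with earlier results of these data known. Values in every tumor were given for members past an unadjusted p of 0.05, those without overlap between groups, the highest per kb in each class, and 15 set members, 19 genes in all; related genes were named from the smallest p in each list. Genes named beyond this rule were chosen after their values were seen. Alternatives were DESeq2 1.42.0, limma-voom (limma 3.58.1) with array weights, RLE and total count scaling, other filters, covariates (fibroblast list, sex, tumor identifier range), each tumor left out, WT 3 and null 7 both left out, and other gene lengths. Sex was inferred from Xist mRNA, with Ddx3y mRNA as a check, and was not taken from the labels. The identifier range was set by the leading digits of each tumor's identifier.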

Additional observations from a re-analysis of the deposited data

Results flagged for a closer look

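In each group of 4 or 5 tumors, the gap between the most extreme tumor and its neighbour was divided by the range of the group's log2 CPM. It passed Dixon's 95% critical value in 13 of 74 groups tested, where chance gives about 1 in 20, and genes that move together do not give independent tests.

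Null 7 was the low tumor in 10 of them. The share of the range was 0.913 for Col1a1 (141 CPM, the other null tumors at 1177 to 1442 CPM), 0.852 for Col1a2 (97.8 against 759 to 1085 CPM) and 0.819 for Col3a1 (89.4 against 1056 to 1822 CPM). For the type V chains it was 0.81 for Col5a1, 0.871 for Col5a2 and 0.797 for Col5a3, and for the type VI chains 0.763 for Col6a1, 0.786 for Col6a2 and 0.854 for Col6a3. Col16a1 had 0.736 (8.43 against 58.1 to 116 CPM). The sums of the fibroblast, pericyte, endothelial and epithelial markers were lowest in the same tumor, and their part in these values was not tested.

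WT 2 was the high tumor for Col7a1, at 0.918 (186 CPM, the other WT tumors at 18.2 to 21.99 CPM), and for Col13a1, at 0.866 (9.74 against 3.39 to 3.91 CPM). Null 15 was the high tumor for Col24a1, at 0.81 (4.55 against 0.706 to 1.02 CPM). No type IV gene was among the 13.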

How the results depend on the processing

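Under each alternative 0 collagens passed the adjusted threshold. Over 19 named genes and 19 alternatives, 318 of 360 fitted values kept their direction and 42, in 15 genes, turned. The median log2 fold change of the collagens (-0.43) was 0.71 with the fibroblast list as covariate and ran from -0.66 to 0.04 with each tumor left out, the last without WT 2.

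At the unadjusted threshold, lower collagens numbered 0, but 1 by DESeq2 (Col6a4), 2 with no filter (Col6a4 and Col6a5), 1 with the identifier range as covariate (Col6a5), 2 without both WT 3 and null 7 (Col1a2 and Col3a1), and 0 to 2 with each tumor left out. Higher ones numbered 1, but 0 by limma-voom, 3 with the fibroblast covariate (Col4a6, Col14a1 and Col16a1), 2 with sex as covariate (Col4a5 and Col4a6), 1 with the identifier range as covariate, which was Col20a1 in place of Col4a5 (0.66, adjusted p = 0.475 in edgeR), 0 without both WT 3 and null 7, and 0 to 3 with each tumor left out.

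With the fibroblast covariate the log2 fold change turned positive for Col1a1 (1.23), Col1a2 (0.60), Col3a1 (0.62), Col5a1 (1.18), Col6a1 (1.28), Col6a2 (1.23), Col6a3 (0.82), Col12a1 (0.52), Col13a1 (0.61), Col15a1 (0.67), Col16a1 (1.49) and Col17a1 (0.74). Col16a1 (-0.01 in the report) was also 0.0021 by DESeq2, 0.13 by limma-voom, 0.040 with total count scaling, 0.0425 with no filter, 0.18 with sex and 0.062 without both WT 3 and null 7. Col17a1 was 0.43 without both. Col7a1 was -0.11 with sex and -0.0755 without both. The cause was not tested for any of these.

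With each tumor left out in turn, the ranges that crossed 0 were -0.56 to 1.63 for Col7a1, -1.08 to 0.22 for Col17a1, -0.35 to 0.39 for Col16a1, -0.79 to 0.14 for Col13a1, -1.03 to 0.26 for Col6a2, -0.95 to 0.175 for Col6a1, -0.70 to 0.04 for Col5a1, -0.0924 to 0.54 for Col4a2 and -0.0559 to 0.39 for Col8a1. Col4a5 stayed at 0.65 to 1.0041. No paired analysis was possible because the groups share no tumor number. Depth limits the 7 untested members and Col4a3, Col4a4, Col6a5 and Col17a1, each at 0 counts in 1 tumor; for the abundant chains the scatter among tumors is the limit.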

Other observations

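Collagens known from cartilage ranged from near the floor of detection to well above it. Col2a1, the main cartilage fibril chain, had 0 to 12 counts per tumor and at most 0.462 CPM, and Col9a1 had 1 count, in WT 6. Col10a1 and Col11a2, in contrast, were counted in every tumor, at 2.96 to 83.8 CPM and 3.22 to 21.3 CPM. Col11a1, which also occurs in tumor stroma, reached 18.3 CPM in WT 2, 16.3 CPM in WT 9 and 11.7 CPM in null 18, against 0.353 CPM in null 7. The cartilage proteoglycan Acan was present in every tumor at 6.69 to 235 CPM, while Matn1, another cartilage gene, was at 0 in all.

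Some scarce members had most of their counts in a few tumors. Col6a5 had 14.9 CPM in WT 2 and 5.67 CPM in WT 3 and at most 3.46 CPM elsewhere. Col6a6 had 14.1 CPM in WT 2, 6.20 CPM in null 15 and 5.21 CPM in WT 9. Col9a3 had 11.2 CPM in WT 9 and at most 2.68 CPM in the other 8 tumors.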
